A study of Mus musculus with 6 samples.

Results

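Interleukin receptor genes were followed through a DNA methylation comparison of Tet2 knockout (KO) and wild-type (WT) mouse naive B cells. They were taken by symbol: every protein-coding gene on chromosomes 1 to 19 and X whose name is Il, a number and then r, which gave 41 of 21631 genes. The pattern also takes in Il1rn, the secreted IL-1 receptor antagonist, which is a ligand-like inhibitor and not a receptor. The rule uses no methylation value, although earlier results of these data were known when the family was chosen. CpG cytosines counted for a gene from 2 kb below its span to 2 kb above it, on the mouse build GRCm38, if covered by at least 10 reads in all 6 libraries. This left 1282 of 1456028 cytosines, in 32 of the 41 genes.

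All cells came from spleens of C57BL/6 mice. One group was labelled as carrying a Tet2 knockout (3 libraries, KO 1 to 3) and the other as wild type (3 libraries, WT 1 to 3). The labels give neither the knockout allele, nor whether it was confined to a cell lineage, nor the age or sex of the mice, nor whether each library was a separate mouse. The p-values below therefore measure the spread between libraries, which may be partly technical. The title of the series and every sample label say naive B cells, although the submitters' design note speaks of the germinal centre.

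Interleukin receptors are mostly built from a ligand-specific chain and a shared chain, and they pass the signal on through JAK kinases and STAT factors or, for the IL-1 and IL-17 families, through adaptor proteins. Resting B cells depend on a subset of them: IL-4 and IL-21 received from T cells steer activation and antibody class switching, and IL-7 acts earlier, in precursors. TET2 oxidises 5-methylcytosine as a step of demethylation, so its loss is usually studied for gains of methylation. Enhanced reduced representation bisulfite sequencing (ERRBS) reads CpGs in fragments cut by MspI at the site CCGG, and it reads 5-methylcytosine and 5-hydroxymethylcytosine alike as methylated.

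RefSeq promoter sequences (GRCm38.p6, 250 bases before to 50 after the annotated start) were available for 34 of the 41 genes, as 42 sequences. All 182 measured cytosines within them lay on a C of the sequence or on a G for the opposite strand. CG occurs in 94.6% of the promoters in that table, with a median of 7 per promoter, and CCGG in 52.8%. Both motifs read the same on both strands, and every CCGG contains a CG. Among the receptor promoters, 19 sequences held CCGG and 12 of these had measured cytosines, against 0 of the 23 sequences without it. The following 5 show the range, from starts with many CpGs and hardly any methylation to the Il17rc start, with the median number of CpGs and much methylation. Capitals mark CpGs with at least 1 cytosine measured in all 6 libraries, and every other base is in lower case.
Il4ra, chr7:125552021-125552320, plus strand: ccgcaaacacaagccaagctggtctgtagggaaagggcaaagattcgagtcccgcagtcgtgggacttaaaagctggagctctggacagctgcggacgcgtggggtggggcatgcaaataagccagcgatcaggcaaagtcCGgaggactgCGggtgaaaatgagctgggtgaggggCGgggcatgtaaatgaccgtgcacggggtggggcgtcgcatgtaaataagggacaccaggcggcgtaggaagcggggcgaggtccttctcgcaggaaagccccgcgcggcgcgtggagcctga
Il6ra, chr3:89913147-89913446, minus strand: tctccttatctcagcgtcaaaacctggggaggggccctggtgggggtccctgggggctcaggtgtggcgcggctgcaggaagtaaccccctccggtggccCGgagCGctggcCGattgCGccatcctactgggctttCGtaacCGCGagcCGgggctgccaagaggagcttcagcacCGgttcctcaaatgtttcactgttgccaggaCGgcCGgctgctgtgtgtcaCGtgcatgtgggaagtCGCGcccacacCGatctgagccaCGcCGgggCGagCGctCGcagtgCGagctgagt
Il1rap, chr16:26581455-26581754, plus strand: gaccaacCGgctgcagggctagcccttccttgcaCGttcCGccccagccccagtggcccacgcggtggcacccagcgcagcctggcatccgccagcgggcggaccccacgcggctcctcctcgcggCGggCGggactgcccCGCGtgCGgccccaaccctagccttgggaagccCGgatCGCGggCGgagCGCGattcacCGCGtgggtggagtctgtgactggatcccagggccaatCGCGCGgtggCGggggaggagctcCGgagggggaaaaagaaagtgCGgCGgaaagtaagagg
Il17rc, chr6:113471205-113471504, plus strand: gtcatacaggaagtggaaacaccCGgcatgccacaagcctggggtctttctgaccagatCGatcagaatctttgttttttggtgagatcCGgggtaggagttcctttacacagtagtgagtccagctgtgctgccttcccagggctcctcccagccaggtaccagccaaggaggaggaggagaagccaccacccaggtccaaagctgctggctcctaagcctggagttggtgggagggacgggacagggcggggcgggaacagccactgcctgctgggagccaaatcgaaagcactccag
Il1r1 (a second annotated start within the gene), chr1:40266336-40266635, plus strand: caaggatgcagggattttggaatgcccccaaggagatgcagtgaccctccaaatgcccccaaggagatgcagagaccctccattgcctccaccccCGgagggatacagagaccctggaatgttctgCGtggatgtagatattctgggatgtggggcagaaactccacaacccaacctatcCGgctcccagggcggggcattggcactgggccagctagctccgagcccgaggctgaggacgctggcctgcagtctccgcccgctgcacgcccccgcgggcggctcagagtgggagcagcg

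In the Il4ra sequence, 3 of 25 CpGs were measured and KO libraries showed 0% methylation at each, against at most 1.06% as a mean of the WT libraries. The 21 measured of 25 CpGs at Il6ra had means between 0 and 1.03% in KO libraries and between 0 and 0.949% in WT libraries. The 23 measured of 33 CpGs at Il1rap reached at most 2.01% in KO libraries and 2.17% in WT libraries. These 3 starts were close to unmethylated at every CpG measured, in both genotypes.

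The Il17rc sequence has 7 CpGs, of which 3 were measured, all upstream of the start. Counting bases back from the start, the CpG at -227 was at 78.0, 74.3 and 71.0% in KO libraries, against 57.6, 60.5 and 61.3% in WT libraries. The CpG at -191 was at 56.7, 78.8 and 80.1% in KO libraries, against 63.4, 61.3 and 68.9% in WT libraries. The KO libraries thus lay above the WT libraries at -227 and overlapped them at -191. The third, at -161, averaged 92.2% ± 3.57 in KO libraries and 93.2% ± 2.22 in WT libraries (SD, n = 3 each).

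The second Il1r1 start carries 14 CpGs and again only 3 were measured. At -155 methylation averaged 39.0% ± 2.70 in KO libraries and 35.0% ± 3.81 in WT libraries (SD, n = 3 each), and the genotypes overlapped. At -124 the KO libraries had 11.7, 5.8 and 11.8%, against 1.95, 3.64 and 2.87% in the WT libraries. At -70 the order was the opposite, with 0% in all 3 KO libraries against 3.95, 4.31 and 4.76% in the WT libraries. The order of the genotypes was thus opposite at these neighbouring CpGs, each read at 1 cytosine. The pooled differences, 7.01 and -4.32 points, were under the 10 points that the threshold used below requires (quasi-binomial model, adjusted p = 0.880 for both).

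Libraries held 1551481 to 1626375 cytosines with a median coverage of 92 to 110 reads. Coverage summed over these cytosines came to 168455105 to 207065050, which counts a read at every cytosine it covers and is not a number of reads. No pair of libraries had equal C and T counts at more than 0.613% of cytosines, so none was a repeat of another. Within Tet2 (chromosome 3), 6 cytosines from 133486189 to 133486297 had 28 to 71 reads in every WT library and were listed in no KO library. Of 8 B cell markers listed, 6 had tiles, and the lowest tiles of Cd79a and Cd79b, parts of the B cell receptor, were at 0.262% and 0.355% in KO libraries and at 0.0425% and 0.613% in WT libraries. The lowest tile was under 10% in both genotypes for 3 of these 6 genes, for 3 of 7 T cell genes (Cd4, Lck and Tcf7), for 1 of 4 myeloid genes (Csf3r), for 2 of 3 NK cell genes and for 1 of 2 erythroid genes, so these lists do not set the cell types apart here. Methylation is not expression, and a mixture of cells cannot be told apart from partial methylation within cells.

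For testing, the genome was divided into 1 kb tiles with at least 3 measured cytosines, and reads with C (methylated) and T (unmethylated) were pooled within each. Here and below, a read was counted once at each cytosine it covered. The receptor genes held 110 of the 108808 tiles, from 1 to 8 per gene, with 2 tiles shared by the adjacent genes Il17re and Il17rc. Calling a tile took a difference of at least 10 percentage points together with an adjusted p below 0.05. No receptor tile was called in either direction, and the share called among all tiles was 0% higher and 0% lower in KO. The 43 receptor tiles at 90% or more in WT libraries had no room for a gain above 10 points. The 29 under 10% in WT libraries had no room for a loss of 10 points. At an unadjusted p under 0.05, 11 receptor tiles were higher in KO and 1 was lower, against 5.52% and 1.44% of all tiles. With limma on log ratios of the reads the counts at that level were 5 higher and 2 lower, against 5.06% and 1.51% of all tiles. With equal weight for each cytosine they were 3 and 3, against 5.38% and 2.02%, and neither test called a receptor tile.

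In 15 receptor tiles every KO library exceeded every WT library, 13.6%, against 8.34% of all tiles. The reverse order was found in 4, or 3.64%, against 3.36% of all tiles. The median difference over the receptor tiles was 0.171 points, beside 0.174 points over all tiles, and 61.8% of the receptor tiles were higher in KO beside 59.7% of all tiles. Within the band of similarly methylated tiles, 8 receptor tiles exceeded the 95th percentile of all tiles and 2 fell below the 5th. The difference was under 1 point in 54 of the 110 tiles and at least 10 points in 3.

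**Figure D1:**
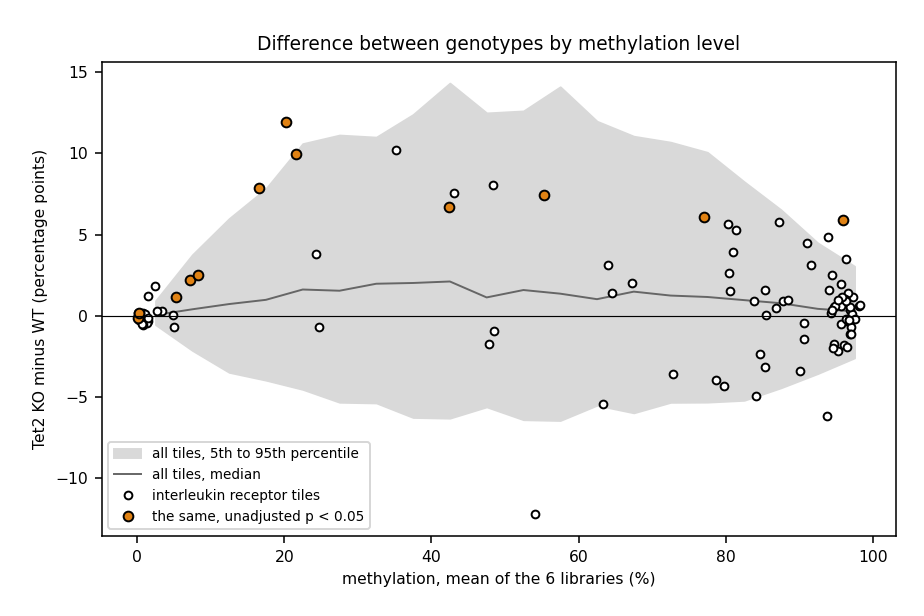
Difference in methylation, Tet2 KO minus WT in percentage points (vertical axis), against the mean methylation of the 6 libraries in percent (horizontal axis) for the 110 receptor tiles (circles). The grey band spans the 5th to 95th percentile of all 108808 tiles at that level, and 8 circles lie above it and 2 below it.

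By level, 29 receptor tiles had less than 10% methylation in both genotypes and 64 had at least 70% in both. The 6 tiles with 10 to 30% in WT libraries had a median difference of 8.91 points, beside 1.05 points over the 4440 such tiles of the genome. Grouped by the mean of all 6 libraries instead, which does not use 1 genotype to sort, 5 receptor tiles fell in that class, with a median of 7.87 points beside 1.05. These few tiles belong to Il9r, Il15ra, Il6ra, Il1r2 and Il1rapl1, with Il21r among the 6. Those of Il9r (26.1% ± 2.12 in KO and 22.6% ± 2.29 in WT libraries) and Il15ra (24.4% ± 3.11 in KO and 25% ± 0.901 in WT libraries; SD, n = 3 each) overlapped between genotypes. The other 4 are described with their genes below, and no test was made of the class.

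**Figure D2:**
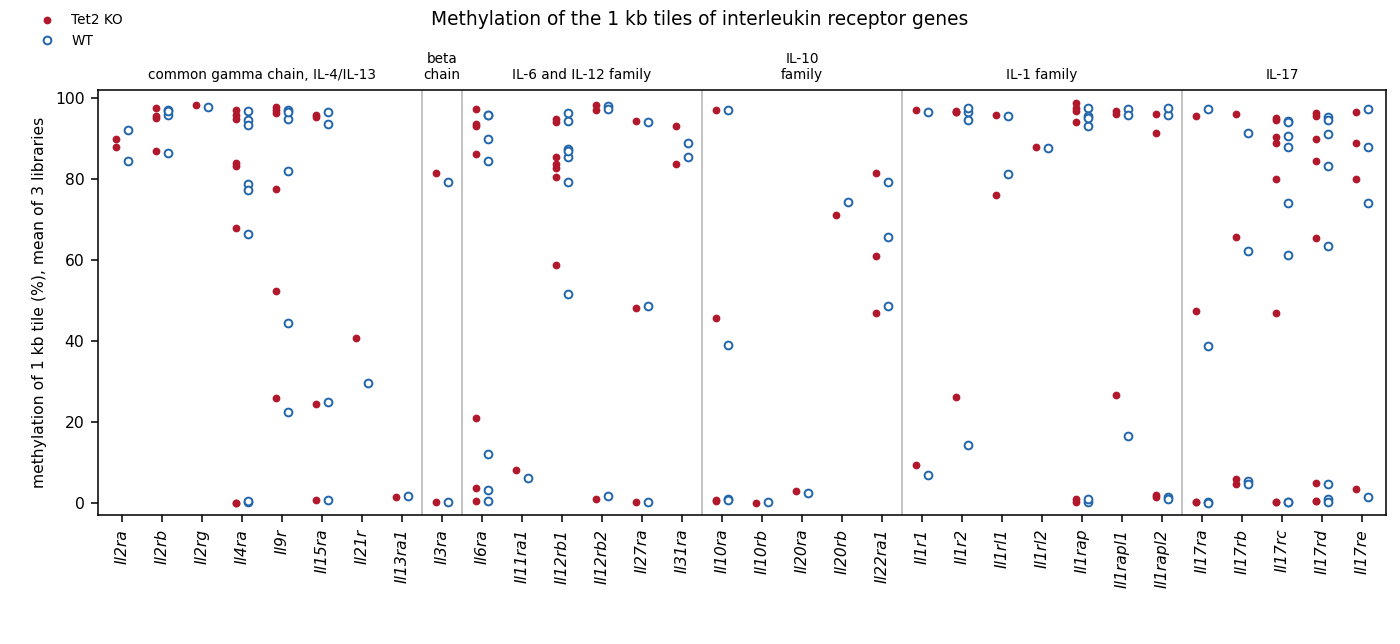
Methylation in percent of each 1 kb tile (vertical axis, mean of 3 libraries) for the 32 genes with a tile, ordered by receptor family. For each gene the left, filled points are Tet2 KO and the right, open points are WT; 29 of the 110 tiles are under 10% in both genotypes and 64 are at 70% or more in both.

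Those annotated starts that were measured were mostly unmethylated. Of the 41 genes, 14 had a tile over the annotated start, and 12 of these tiles were under 10% in both genotypes. Windows of 1 kb on each side of the start, or of both gene ends where the strand was not in the tables used here, could be tested for 20 genes as 21 windows. Of these, 16 were under 10% in both genotypes, with no difference above 2.20 points, and 4 were at 70% or more in both. No window was called, and the share called among all 14815 windows was 0%. The 16 windows under 10% had no room for a loss of 10 points, the least that a call takes. At an unadjusted p under 0.05, 2 windows were higher in KO and 1 was lower, against 4.64% and 0.796% of all windows, and limma on log ratios gave 1 and 1, against 4.39% and 1.14%. The genotypes did not overlap in 3 windows with KO above and 1 with KO below, against 8.05% and 2.42% of all windows. The windows at 70% or more were the starts of Il17rc and Il22ra1 and both ends of Il12rb1.

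Receptors of the common gamma chain cytokines and of IL-4 and IL-13 were represented by 10 genes. Il2rg encodes the common gamma chain itself, shared by the receptors for IL-2, IL-4, IL-7, IL-9, IL-15 and IL-21. Its single tile, downstream of the gene and shared with Gm614, stood at 98.4% ± 1.5 in KO libraries and 97.7% ± 1.25 in WT libraries (SD, n = 3 each). Il7r, the receptor chain of the lymphocyte survival factor IL-7, and Il13ra2, a decoy receptor for IL-13, had no measured cytosine. Over all tiles, 5.52% were higher and 1.44% lower in KO at an unadjusted p under 0.05. In this group 27 tiles were tested, 0 had an unadjusted p under 0.05 with KO higher and 1 with KO lower.

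Il4ra, the signalling chain for IL-4 and IL-13, gave the lower one. Summed over the 18 cytosines of its start tile (chromosome 7, 125552001 to 125553000), 0 of 2789, 0 of 2172 and 0 of 2509 calls were methylated in the KO libraries. A read gives 1 call at each cytosine it covers. In the WT libraries 6 of 2836, 3 of 2662 and 4 of 2699 calls were methylated, which is 0.212, 0.113 and 0.148%. The genotypes did not overlap, but the difference was -0.159 points (adjusted p = 0.675). A count of 0 allows up to 0.108, 0.138 and 0.120% in the KO libraries, for counting error only and with every call taken as independent. Calls from the same read are not independent, and reads of the same PCR molecule cannot be recognised, so these limits are too narrow. The tile 8.23 kb into the gene (125560001 to 125561000) had 79.8, 85.1 and 87.2% in KO libraries, against 79.7, 77.4 and 79.3% in WT libraries. KO 1 was just above the highest WT library there, and the difference of 5.26 points had an adjusted p of 0.764.

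Il21r receives IL-21, the cytokine of follicular helper T cells. Its single tile lies near the far end of the gene (chromosome 7, 125632001 to 125633000), over 3 cytosines. Methylation was 37.3, 47.8 and 37.0% in KO libraries, against 22.8, 33.3 and 33% in WT libraries. In pooled reads every KO library was above every WT library, by 10.2 points ± 4.61 (SE, adjusted p = 0.723). With equal weight for each cytosine the means were 42.5% in KO libraries and 36.6% in WT libraries, 5.94 points apart. The largest difference was at one cytosine, with 30.7, 37.0 and 25.1% in KO libraries against 8.86, 17.6 and 15.2% in WT libraries, and the last of the 3 averaged 36.8% in KO and 41.2% in WT libraries.

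None of the other genes of this group had a called tile. Il9r, for the mast cell and T cell growth factor IL-9, had a tile (chromosome 11, 32190001 to 32191000) at 74.4, 78.6 and 79.5% in KO libraries, against 82.5, 81.7 and 81.9% in WT libraries. All KO libraries were below, by -4.31 points (adjusted p = 0.735). Il2ra, the high-affinity IL-2 chain of activated lymphocytes, had 89.9% ± 4.6 in KO libraries and 84.5% ± 1.93 in WT libraries at its tile with the smallest p (adjusted p = 0.799). Il2rb, the chain shared by IL-2 and IL-15, had 97.6% ± 1.92 in KO and 97.1% ± 1.28 in WT libraries at such a tile (adjusted p = 0.925). Il15ra, which presents IL-15 to other cells, had 95.3% ± 1.01 in KO and 93.6% ± 4.88 in WT libraries (adjusted p = 0.890). Il13ra1, the partner of IL-4R alpha for IL-13, was covered at its start, with 1.39% ± 0.203 in KO and 1.67% ± 0.504 in WT libraries (adjusted p = 0.899). In these last 4 genes the libraries of the genotypes overlapped.

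Of the alpha chains that pair with the common beta chain, Il5ra (eosinophils and mouse B-1 cells) had no measured cytosine. Il3ra, for the haematopoietic growth factor IL-3, had 2 tiles on either side of its start. One was at most 0.431% in any library, and the other had 76.8, 85.2 and 82.3% in KO libraries against 76.1, 82.8 and 79.3% in WT libraries (adjusted p = 0.868). In both genotypes one side of the start was unmethylated and the other methylated.

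The IL-6 and IL-12 families supplied 8 genes, 2 of them without measured cytosines: Il11ra2, a near copy of Il11ra1 in the mouse, and Il23r, the IL-23 chain of Th17 cells. Since the 2 IL-11 receptor genes are near copies, reads of Il11ra1 may be shared between them. In this group 3 of 23 tiles were higher in KO at an unadjusted p under 0.05 and 0 were lower. Among all tiles these shares were 5.52% and 1.44%, and no test of the group was made. Il6ra encodes the IL-6 binding chain, also found as a soluble form, and its start was unmethylated. About 40.7 kb into the gene, a tile over 8 cytosines (chromosome 3, 89872001 to 89873000) had 17.8, 29.4 and 16.1% in KO libraries, against 10.9, 13 and 12.5% in WT libraries. KO 2 was the highest, the genotypes did not overlap, and the difference was 7.87 points ± 2.82 (SE, adjusted p = 0.659). All 8 cytosines had a higher mean in KO libraries, by between 0.529 and 16.5 points, and 1 of them separated the genotypes. They lie within a short stretch and share reads, so they are not 8 independent measurements.

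Il12rb1 is the chain shared by the IL-12 and IL-23 receptors. Its tile over 24 cytosines (chromosome 8, 70816001 to 70817000) had 64.6, 53.0 and 58.9% in KO libraries, against 49.7, 52.7 and 52.5% in WT libraries. KO 2 was barely above the highest WT library, and the difference was 7.42 points ± 2.58 (SE, adjusted p = 0.645). Of its cytosines, 19 of 24 had a higher mean in KO, but the range ran from -14 to 23.8 points. A tile further along (70821001 to 70822000) went the other way, with 82.4, 85.0 and 83.9% in KO libraries against 85.4, 87.3 and 88.3% in WT libraries, a difference of -3.16 points (adjusted p = 0.764).

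Il11ra1, the IL-11 chain, had its start tile (chromosome 4, 41760001 to 41761000) at 8.39, 6.99 and 9.29% in KO libraries, against 5.28, 6.56 and 6.48% in WT libraries. In pooled reads the genotypes were separated by a small gap and differed by 2.20 points ± 0.924 (SE, adjusted p = 0.696). With equal weight for each cytosine the difference was 1.42 points. Il12rb2, the signalling chain for IL-12, had 1.09% ± 0.385 in KO and 1.68% ± 0.525 in WT libraries at its start (adjusted p = 0.844). Il27ra, which limits or directs T cell responses to IL-27, had 0.328% ± 0.111 in KO and 0.275% ± 0.0640 in WT libraries at its upper end (adjusted p = 0.951). Il31ra, the itch-related IL-31 chain, was methylated below its span, at 93.1% ± 3.05 in KO and 89% ± 1.87 in WT libraries (adjusted p = 0.764). The genotypes overlapped in each of these last 3 genes.

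**Figure D3:**
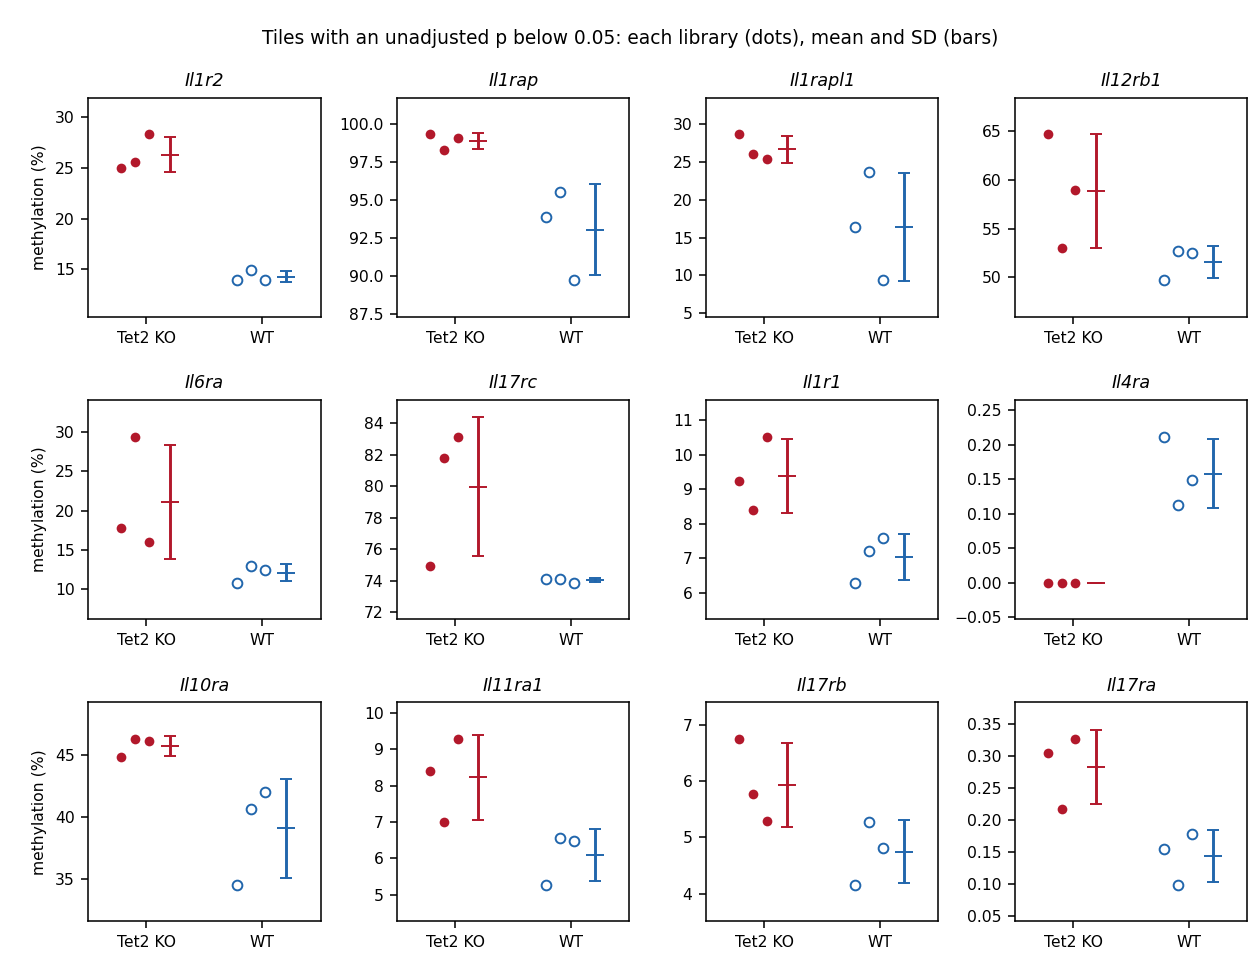
Methylation in percent of the 12 receptor tiles with an unadjusted p under 0.05, with Tet2 KO libraries left (filled) and WT libraries right (open), bars giving mean and SD of 3 libraries, on axes that do not all start at 0. KO libraries lie above WT libraries in 11 panels and below them in that of Il4ra, whose values are all under 0.3%.

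The class II receptors of the IL-10 family comprised 6 genes. Il22ra2, a soluble IL-22 binding protein, had no measured cytosine. Il10ra, the ligand-binding chain for the inhibitory cytokine IL-10, had a tile over 3 cytosines (chromosome 9, 45266001 to 45267000) at 44.9, 46.3 and 46.2% in KO libraries, against 34.5, 40.7 and 42.0% in WT libraries. The KO libraries were close together and all above, with WT 1 lowest, and the difference was 6.67 points ± 2.75 (SE, adjusted p = 0.689). All 3 cytosines were higher in KO by similar amounts, 6.33 to 7.30 points, though none separated the genotypes alone. The gene's upper end was near 0 in both genotypes.

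Il10rb, the chain that IL-10 and IL-22 share, had 0.113% ± 0.0657 in KO and 0.157% ± 0.0970 in WT libraries at its lower end (adjusted p = 0.942). Il20ra, for IL-19, IL-20 and IL-24, had 2.90% ± 1.61 in KO and 2.51% ± 0.752 in WT libraries at its start (adjusted p = 0.966). Its partner Il20rb was methylated, at 71.2% ± 5.26 in KO and 74.4% ± 2.13 in WT libraries (adjusted p = 0.930). Il22ra1, an epithelial receptor chain, had a start tile at 65.0, 59.5 and 58.3% in KO libraries, against 64.7, 67.0 and 65.8% in WT libraries. KO 1 lay among the WT libraries, and the difference of -5.44 points had an adjusted p of 0.761.

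The IL-1 family held 10 genes, of which Il18r1, Il18rap (the chains for IL-18) and Il1rn had no measured cytosine. Of its 22 tiles, 4 were higher in KO at an unadjusted p under 0.05 and 0 were lower. Among all tiles these shares were 5.52% and 1.44%, and no test of the family was made. The smallest p of any receptor tile was that of Il1r2, a decoy receptor that binds IL-1 without signalling. The tile lies 5.41 kb into the gene (chromosome 1, 40091001 to 40092000) and holds 3 cytosines with 200 to 625 reads a library. Methylation was 25, 25.6 and 28.3% in KO libraries, against 14, 14.9 and 13.9% in WT libraries. In pooled reads each genotype was tight and the gap between them was wider than either spread. The pooled difference was 11.9 points ± 2.70 (SE, quasi-binomial model, unadjusted p = 0.00147). Over all tiles the adjusted p was 0.381, so the tile was not called. Its single cytosines were less tight. At 1 of them the KO libraries read 6.73, 8.47 and 6.12% against 0% in each WT library. The other 2 were higher on average in KO with overlapping libraries. They had 43.2, 53.3 and 60.2% in KO against 47.9, 43.8 and 36.5% in WT libraries, and 20.2, 6.84 and 31.3% against 6.58, 9.0 and 8.40%.

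Il1rap, the accessory chain for IL-1, IL-33 and IL-36 signalling, differed at a tile 105 kb into the gene (chromosome 16, 26686001 to 26687000). It had 99.3, 98.3 and 99.1% in KO libraries, against 93.9, 95.5 and 89.7% in WT libraries. The KO libraries were all nearly fully methylated and all above the WT libraries, by 5.92 points ± 1.77 (SE, adjusted p = 0.496). The largest gap was at one cytosine, with 100% in every KO library against 76.3, 88.7 and 89.1% in the WT libraries. At the start of the gene, the tile had 0.374, 0.274 and 0.175% in KO libraries and 0.418, 0.214 and 0.324% in WT libraries.

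Il1r1, the signalling receptor for IL-1, had its tile at the second start (chromosome 1, 40266001 to 40267000) at 9.24, 8.39 and 10.5% in KO libraries, against 6.30, 7.22 and 7.60% in WT libraries. In pooled reads the libraries did not overlap, and the difference was 2.49 points ± 0.938 (SE, adjusted p = 0.675). With equal weight for each cytosine the difference was 1.28 points. The tile sums CpGs with opposite orders of the genotypes, as the printed sequence showed.

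Il1rapl1, a receptor-like protein known from synapses, spans 1375 kb of chromosome X. Its tile over 10 cytosines (87238001 to 87239000) had 28.7, 26.0 and 25.4% in KO libraries, against 16.4, 23.6 and 9.32% in WT libraries. In pooled reads WT 2 came close to the KO libraries, and the difference was 9.95 points ± 3.32 (SE, adjusted p = 0.631). Of the 10 cytosines, 9 had a higher mean in KO libraries and 4 separated the genotypes, but the range ran from -15.1 to 21.9 points. In the same tile, 7 further cytosines were covered by 16 to 25 reads in all 3 WT libraries and listed in no KO library, at 22.8% ± 16.4 in WT (SD, n = 3). The sex of the mice was not given, and Y-linked cytosines were listed in every library, 1492 to 1528 in KO libraries and 1151 to 1518 in WT libraries.

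Il1rl1, the IL-33 receptor of type 2 immune cells, had 76.0% ± 4.94 in KO and 81.3% ± 10.9 in WT libraries (adjusted p = 0.920). Il1rl2, the IL-36 receptor, had 87.9% ± 6.57 in KO and 87.7% ± 3.20 in WT libraries (adjusted p = 0.977). Il1rapl2, related to Il1rapl1, had 94.0, 93.2 and 87.2% in KO libraries, against 92.9, 99.3 and 95.7% in WT libraries at a tile deep in the gene (adjusted p = 0.758). In all 3 genes the genotypes overlapped.

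**Figure D4:**
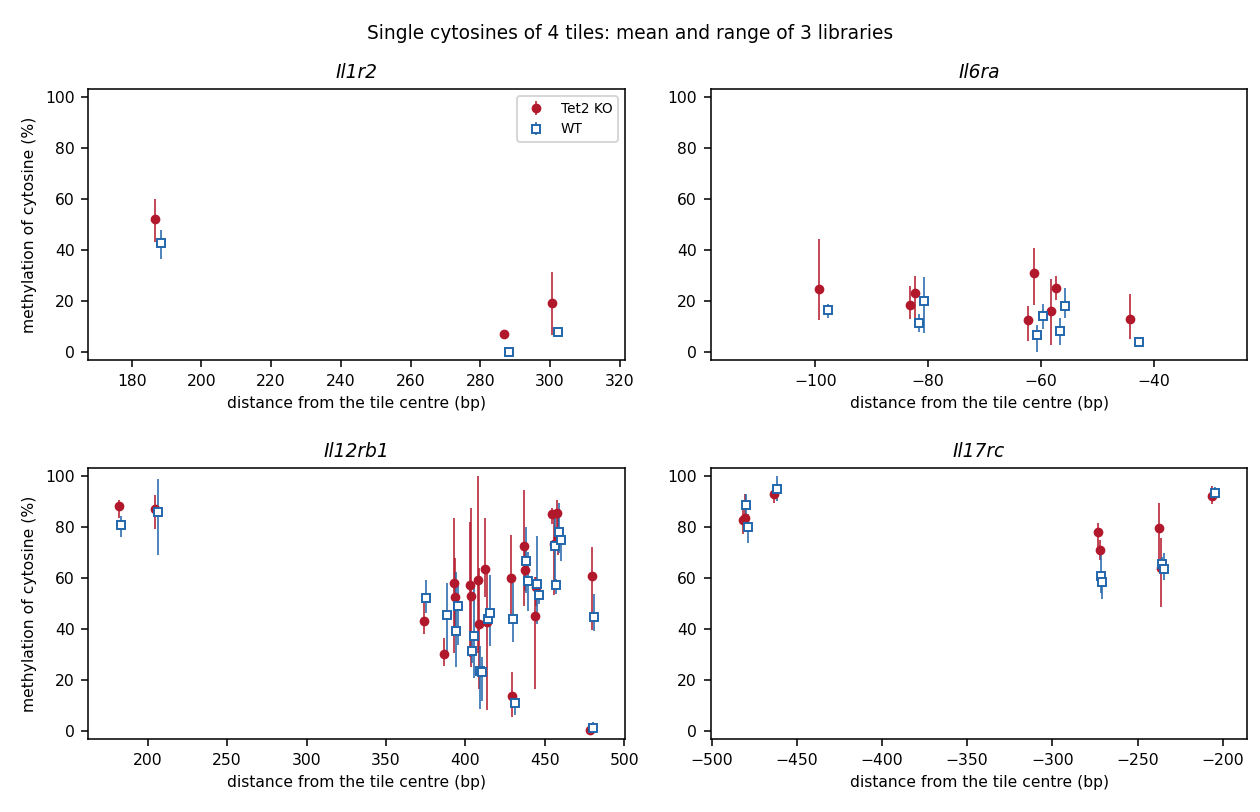
Methylation in percent of the single cytosines in the tiles of Il1r2, Il6ra, Il12rb1 and Il17rc, against distance from the tile centre in bp, with Tet2 KO as filled circles and WT as open squares, each the mean and range of 3 libraries, shifted slightly sideways. All 8 Il6ra cytosines and 19 of 24 in Il12rb1 have a higher KO mean, and the ranges of most overlap.

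All 5 IL-17 receptor genes were measured, with 26 tiles. At an unadjusted p under 0.05, 3 of these were higher in KO and 0 lower, against 5.52% and 1.44% of all tiles. Il17rc and Il17ra form the receptor for IL-17A and IL-17F. The tile over the start of Il17rc, which also lies just beyond the end of Il17re (chromosome 6, 113471001 to 113472000), had 74.9, 81.8 and 83.1% in KO libraries, against 74.1, 74.1 and 73.9% in WT libraries. The WT libraries were almost identical and KO 1 was close to them, and the difference was 6.05 points ± 2.18 (SE, adjusted p = 0.662). The largest differences lay in the CpGs at -227 and -191 of the printed sequence, and 3 of its 8 cytosines had a lower mean in KO. Beyond the other end of Il17rc, within the neighbouring gene Creld1 (113484001 to 113485000), a tile of 3 cytosines had 39.8, 50.3 and 50.8% in KO libraries, against 66.1, 63.5 and 54.0% in WT libraries. All KO libraries were below there, by -12.2 points ± 5.90 (SE, adjusted p = 0.738), on only 96 to 263 reads a library. Il17rc thus had tiles in opposite directions at its 2 ends, neither past the threshold.

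Il17rb, the IL-25 receptor, had a tile upstream of its start, shared with Chdh (chromosome 14, 30009001 to 30010000), at 6.75, 5.77 and 5.28% in KO libraries, against 4.16, 5.27 and 4.82% in WT libraries. The genotypes were separated by almost nothing, and the difference was 1.14 points (adjusted p = 0.698). Il17ra, the chain common to the family, had its lower end covered by 106 cytosines, at 0.304, 0.217 and 0.326% in KO libraries against 0.155, 0.0986 and 0.177% in WT libraries. These libraries did not overlap either, and the difference was 0.146 points (adjusted p = 0.704). Il17rd, an inhibitor of FGF signalling that also binds Il17ra, had 0.490% ± 0.129 in KO and 0.328% ± 0.126 in WT libraries at its start (adjusted p = 0.797).

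Il17re, the IL-17C receptor, had its start tile at 2.81, 2.26 and 5.03% in KO libraries, against 1.40, 1.84 and 1.1% in WT libraries. The KO libraries were all above, by 1.81 points (adjusted p = 0.764).

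Single cytosines gave no call among the 1282 receptor cytosines, as was the case for 0% of the 1456028 tested. At an unadjusted p under 0.05, 40 were higher and 17 lower in KO, against 2.73% and 1.86% of all cytosines. The lowest adjusted p was 0.880, and limma on log ratios gave 66 and 13 at that level, against 4.2% and 1.61% of all cytosines, and also no call. The genotypes did not overlap at 54 cytosines with KO above and 19 with KO below, beside 2.97% and 2.24% of all cytosines.

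For whole gene regions, the difference depended on how cytosines were combined. With reads pooled over each of 30 regions, no receptor gene was called, as was true of 0% of 16430 regions. At an unadjusted p under 0.05, 4 regions were higher in KO and 0 lower, beside 21.8% and 0.195% of all regions, and limma on log ratios also gave 4 and 0, beside 16.8% and 0.627%. The KO libraries lay above the WT libraries in 6 regions (24.9% of all regions) and below them in 0 (1.15%). The median pooled difference was 1.53 points for the receptor regions and 1.0 point for all. With every cytosine given equal weight the medians were 0.293 and 0.157 points, and limma called no region.

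Il1rapl2 showed this most plainly. Its pooled region value averaged 53.7% in KO libraries and 31.9% in WT libraries, 21.7 points apart (adjusted p = 0.133). With equal weights its libraries were at 62.7, 64.2 and 62.1% in KO and at 63.6, 63.3 and 62.6% in WT, a difference of -0.137 points. The share of its reads that fell on the 13 of 39 cytosines with under 10% methylation was 41.2, 41.4 and 44.9% in KO libraries, against 71.8, 64.9 and 62.0% in WT libraries. These shares did not overlap, while the equally weighted methylation values did. Without WT 3 the pooled region was called, at 23.4 points (adjusted p = 0.0451).

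The same held in lesser degree elsewhere. Il1rap stood at 27.8% pooled in KO libraries and 18.1% in WT libraries, 9.79 points apart (adjusted p = 0.164), but 0.616 points apart with equal weights. Its reads on cytosines under 10% made up 71.5% ± 3.64 in KO libraries and 81.5% ± 6.29 in WT libraries (SD, n = 3 each). Il1r1 was 8.53 points apart pooled and 1.1 with equal weights, with 62.0% ± 5.91 of reads on such cytosines in KO libraries and 69.7% ± 0.814 in WT libraries. Of the 23 regions with cytosines on both sides of 10%, 19 had a lower share of reads on the low ones in KO. Over all cytosines of the series that share was 64.0% ± 1.6 in KO libraries and 69.3% ± 2.24 in WT libraries. What sets it was not tested.

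Averaged over the 1282 receptor cytosines with equal weight, methylation was 37.1, 37.3 and 36.8% in KO libraries, against 36.3, 36.8 and 36.4% in WT libraries. KO 3 and WT 2 almost touched, and the difference was 0.589 points. The same mean differed by 0.295 points over the cytosines of all protein-coding gene regions and by 0.345 points over all cytosines. The means were 37.1% ± 0.247 in KO libraries and 36.5% ± 0.264 in WT libraries (SD, n = 3 each).

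Other genes of the interleukin pathways were read from lists of ligands, of shared and related receptor chains, of JAK, STAT and SOCS genes, and of IL-1 and IL-17 adaptors. No tile of these lists was called, as for 0% of all tiles. At an unadjusted p under 0.05, the ligands had 2 tiles higher and 1 lower in KO of 54, and the related chains 2 and 0 of 60. The JAK, STAT and SOCS genes had 6 higher and 3 lower of 112, and the adaptors 6 and 0 of 83, against 5.52% and 1.44% of all tiles. Median differences were 0.0864 points for ligands, 0.0305 for related chains, 0.0891 for JAK, STAT and SOCS genes and 0.384 for adaptors, beside 0.174 over all tiles.

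Stat6, the factor that IL-4R alpha activates, had the smallest p of its list, at 82.7, 88.6 and 84.5% in KO libraries against 76.7, 78.5 and 79.9% in WT libraries (adjusted p = 0.505). Among the adaptors it was Tab1, a partner of the kinase TAK1 in IL-1 signalling, at 79.1, 85.5 and 79.7% in KO libraries against 66.9, 73.9 and 64.1% in WT libraries (adjusted p = 0.589). The libraries did not overlap at either. Il17d, an IL-17 family ligand, was lower in all KO libraries, at 67.0, 69.7 and 68.1% against 71.5, 73.7 and 74.3% in WT libraries (adjusted p = 0.496). Crlf2, the TSLP receptor chain, had 1.37% ± 0.414 in KO and 0.387% ± 0.531 in WT libraries (adjusted p = 0.679).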

How the data were processed

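The authors deposited, for each library, a table of CpG cytosines with a count of covering reads and the percent read as C and as T; the minimum was 10 reads, as the tables show. Bismark and GRCm38 are named in the submitters' processing notes; their versions, and any other step, were not given in the sources used here. C and T counts were recovered from coverage and percent, and other bases made up at most 0.0190% of reads. Reads were pooled in 1 kb tiles (at least 3 cytosines), gene regions (at least 5) and windows of 1 kb on each side of starts. A quasi-binomial model was fitted to the 3 KO and 3 WT libraries (Pearson dispersion with 4 degrees of freedom, moderated by limma's empirical Bayes, floor of 1, F test), and p-values were adjusted by Benjamini-Hochberg over all features of a kind. SEs come from this model.

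The prior was limma's default, as fixed in the design. A prior without dispersions of exactly 0 had been used for a time after counts were seen, and was then returned to an alternative; several filters on which features enter the prior were looked at. Members and gene lists were chosen with earlier results of these data known. Named tiles were the smallest p of each gene, and the 10 largest gains and 5 largest losses among tiles whose genotypes did not overlap. In the pathway lists the tile with the smallest p was named. On simulated data with the real depths, for tiles at 30 to 70% methylation, 8% of 100 changes of 20 points and 67% of 100 changes of 40 points were recovered. Of the 108608 unchanged tiles, at any level, 0% were called. The simulated dispersions were drawn from the fitted prior that the test itself assumes, so these shares cannot show whether that prior is right. PCR duplicates could not be recognised, so read counts give counting error only. Python 3.11.15, numpy 2.4.6, scipy 1.17.1, pandas 2.3.3, matplotlib 3.10.9, R 4.3.3 and limma 3.58.1 were used.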

Additional observations from a re-analysis of the deposited data

How the results depend on the processing

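No receptor tile, window or cytosine was called under any alternative run, which were coverage of at least 20 reads, an upper coverage limit, equal weights, limma on log ratios, no moderation, each library left out and, for tiles, a shifted grid, 5 cytosines per tile and other priors. The count over all tiles did depend on the setting: it was 2 with tiles shifted by 500 bp and 2 with at least 5 cytosines. With alternatives chosen after seeing the data it was 121 with dispersions of exactly 0 left out of the prior and 173 with a robust prior (172 higher and 1 lower in KO), but 0 with a prior trended on reads or a dispersion from the deviance. The cause was not tested.

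Deviations of samples sharing a replicate number had r of 0.0277, -0.0176 and -0.0105 across tiles, which are not independent. Other pairs of a KO and a WT library ran from -0.0185 to 0.0325. The deviations are centred on the mean of 3 libraries, so these values cannot decide whether the numbers pair samples. With the replicate block, 0 of all tiles and 0 receptor tiles were called, and at an unadjusted p below 0.05 receptor tiles numbered 9 higher in KO and 1 lower, against 5.21% and 1.35% of all tiles.

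The mean over receptor cytosines differed by 4.81 points with reads pooled, and by 0.479 to 0.739 with a library left out. With equal weights 8 regions changed sign, to 0.235 points for Il1rl2, -0.374 for Il1rl1, 0.172 for Il20ra, -0.355 for Il31ra, 0.806 for Il2rb, -0.370 for Il12rb2, -0.863 for Il20rb and -0.137 for Il1rapl2. With a library left out, 0 to 192 of all regions and 0 to 1 of the receptor regions were called, both highest without WT 3, when Il1rapl2 was called. Il1rapl2 ranged over 19.3 to 23.4 points.

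Leaving out a library changed the sign of 14 of 30 regions. Their ranges in points were -2.08 to 2.86 (Il10ra), -0.140 to 0.352 (Il10rb), -0.429 to 0.0324 (Il13ra1), -0.438 to 2.29 (Il17rc), -0.546 to 2.66 (Il1rl1), -3.72 to 1.93 (Il1rl2) and -1.6 to 0.591 (Il20ra). The others were -0.0303 to 1.21 (Il20rb), -1.86 to 0.642 (Il22ra1), -1.42 to 0.236 (Il2rb), -1.01 to 2.35 (Il31ra), -0.153 to 2.34 (Il3ra), -1.04 to 5.25 (Il4ra) and -0.683 to 2.76 (Il9r). Of 34 named tiles, 6 changed sign, with -0.157 to 4.22 for Il15ra, -10.3 to 0.581 for Il1rl1, -2.81 to 3.02 for Il1rl2, -0.549 to 0.910 for Il20ra, -0.289 to 1.70 for Il2rb and -0.147 to 1.18 for Il2rg. The Il1r2 tile ranged over 11.1 to 12.5 points. With 3 libraries a genotype, changes of 20 points were mostly missed in simulated data.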

Other observations

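Coverage itself differed at a few receptor cytosines. Of 1687 receptor cytosines seen in any library, 6 were listed in all 3 KO and no WT libraries and 9 in no KO and all 3 WT libraries. Over the genome these patterns made up 0.0979% and 0.0357% of 1799219 cytosines. In Il2ra, 3 neighbouring cytosines (chromosome 2, 11682430 to 11682457) were listed only in KO libraries, on 10 to 13 reads, at 91.8% methylation. In Il31ra, 1 was listed only in KO libraries and 2 only in WT libraries. Il1rap and Il13ra1 each had 1 listed only in KO libraries, at 100% on 11 to 15 and 13 to 26 reads. The 7 listed only in WT libraries in Il1rapl1 span X:87238372-87238405. They had 16 to 25 reads there, and the 2 of Il31ra had 15 to 41. No test was made.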
